A study of Homo sapiens with 4 samples.

Results

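The BCL2 family decides whether a stressed cell keeps or loses the integrity of its mitochondrial outer membrane. Survival proteins hold the effectors in check, and BH3-only proteins, made or activated under stress, either block the survival proteins or engage the effectors. Once the effectors oligomerise, cytochrome c leaves the mitochondria and caspases are activated. In liver cells BCL-XL, encoded by BCL2L1, and MCL1 are the survival proteins known to matter most. The 10 genes described here were named by symbol and found as 10 of the 32479 Ensembl genes in the deposited table, which lists FPKM (fragments scaled to gene length and to the fragments counted in the library). They are the survival genes BCL2, BCL2L1, BCL2L2 and MCL1, the effector gene BAK1, and the BH3-only genes BCL2L11, BID, BAD, BIK and PMAIP1.

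Levels were measured by RNA-seq in 4 groups with 1 library each. These were HepG2 given 20 uM PF-429242 for 24 h, a HepG2 control at 24 h, and the same pair in PLC/PRF/5. Untreated below means the control, without PF-429242. PF-429242 inhibits site-1 protease, the Golgi enzyme that activates the SREBP and ATF6 transcription factors. HepG2 is derived from a human hepatoblastoma, and PLC/PRF/5 from a human hepatocellular carcinoma that carries integrated hepatitis B virus DNA. Both are labelled as wild type and were kept in serum-containing medium, and no vehicle for the controls is named in the labels. With 1 library a group no difference between a pair of libraries was tested, and 95% intervals below are exact counting intervals that cover counting error only.

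The libraries held between 16722204 and 21387301 counted fragments. All 12 hepatocyte markers reached 1 FPKM in every library, and they summed to 8622 and 10006 FPKM in treated and control HepG2 and to 3429 and 2975 in treated and control PLC/PRF/5. No fibroblast or blood marker did, and of the endothelial markers PECAM1 alone did, in PLC/PRF/5; these 3 lists summed to between 0.651 and 1.64 FPKM. Mitochondrial transcripts took 27.6% of fragments in treated HepG2 against 16.6% in its control, and 28.2% in treated PLC/PRF/5 against 21.3% in its control. The median log2 ratio of (FPKM + 1), PF-429242 over control, was -0.17 over 12347 genes in HepG2 and -0.13 over 13144 genes in PLC/PRF/5. The medians were 0.01 and -0.02 in HepG2 and PLC/PRF/5 under median-of-ratios scaling, and -0.00 and -0.02 with totals over nuclear genes. Member values are therefore also given relative to the median of all genes.

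What the 10 genes share in sequence is the BH3 core, the short helix through which family members bind each other. Coding sequences of each gene were searched for codons of leucine or methionine, 3 codons of any kind, glycine or serine, and aspartate, in that order. All 10 genes held this pattern, and for each the longest coding sequence with a match was used. The pattern alone is not specific, since 31.2% of 19501 protein-coding genes hold it in their longest coding sequence. That share was taken from the longest sequence with or without a match, so it is not the same search. The stretches below are from GENCODE 29 transcripts, 5′ to 3′ on the coding strand, with the 18 bases of the core in capitals and 21 bases on either side. BID held 2 matches, and the one with a glycine codon, from base 406 of its coding sequence, is shown.
BCL2: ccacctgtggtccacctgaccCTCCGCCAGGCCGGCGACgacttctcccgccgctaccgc
BCL2L1: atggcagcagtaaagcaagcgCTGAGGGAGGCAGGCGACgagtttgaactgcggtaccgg
BCL2L2: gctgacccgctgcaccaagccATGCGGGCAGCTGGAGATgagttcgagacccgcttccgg
MCL1: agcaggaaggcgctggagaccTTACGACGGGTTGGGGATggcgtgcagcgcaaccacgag
BAK1: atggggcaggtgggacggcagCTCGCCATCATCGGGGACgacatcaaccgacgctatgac
BCL2L11: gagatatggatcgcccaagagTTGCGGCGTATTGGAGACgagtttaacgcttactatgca
BID: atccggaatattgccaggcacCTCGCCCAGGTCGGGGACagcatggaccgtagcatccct
BAD: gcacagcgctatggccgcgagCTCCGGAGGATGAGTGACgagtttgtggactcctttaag
BIK: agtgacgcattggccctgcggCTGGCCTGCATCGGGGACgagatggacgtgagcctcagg
PMAIP1: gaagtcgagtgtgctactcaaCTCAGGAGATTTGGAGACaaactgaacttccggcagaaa
Across these 10 cores 4 of the 18 bases were the same in every gene, at core positions 2, 14, 16 and 17. Positions 2, 16 and 17 are fixed by the codons searched for, and position 14 is fixed for every glycine codon. Apart from the serine codon of BAD, this sameness was set by the search and is no finding about the genes. BAD alone carries a serine codon where the others carry glycine, and BCL2L2 alone opens with methionine. Outside the core the genes differ in size, with coding sequences of 54 codons in PMAIP1 and 350 in MCL1.

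A pair of survival genes dominated the family in both lines. BCL2L1 (ENSG00000171552, GRCh38 chromosome 20, 31664452 to 31723989, minus strand) was at 60.8 FPKM in treated and 74.9 in control HepG2, and at 42.7 FPKM in both PLC/PRF/5 libraries. MCL1 (ENSG00000143384, chromosome 1, 150574551 to 150579738, minus strand), a short-lived survival protein, was at 47.8 FPKM in treated HepG2 and 57.5 in its control, and at 58.3 in treated PLC/PRF/5 and 60.2 in its control. BCL2L1 was thus the highest member in HepG2 and MCL1 in PLC/PRF/5, with or without PF-429242. In bulk RNA, fewer cells with a transcript and less of it per cell cannot be told apart. The counting interval of the ratio between these neighbours excluded 1 in all 4 libraries. In HepG2 the order rests on the exon lengths used, 3314 bases for BCL2L1 and 4371 for MCL1. MCL1 had more fragments there, 4251 against 4100 in treated and 4204 against 4148 in control HepG2. The intervals do not cover error in these lengths.

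BCL2L1 and MCL1 together made up between 89.3% and 92.7% of the summed FPKM of the 4 survival genes in each library. BCL2L2 (ENSG00000129473, chromosome 14, 23298790 to 23311759, plus strand), which encodes BCL-w, was at 12.9 FPKM in treated and 13.7 in control HepG2, and at 9.80 in treated and 8.11 in control PLC/PRF/5. BCL2 itself (ENSG00000171791, chromosome 18, 63123346 to 63320128, minus strand), the founding survival gene, was at 0.134 and 0.137 FPKM in treated and control HepG2 and at 0.0751 and 0.0477 in treated and control PLC/PRF/5. These BCL2 values rest on 32, 27, 15 and 12 fragments in the same order. BCL2 was the lowest of the 10 genes in both PLC/PRF/5 libraries and in treated HepG2, where its interval overlapped that of BIK.

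The effector gene BAK1 (ENSG00000030110, chromosome 6, 33572547 to 33580293, minus strand) was at 7.29 FPKM in treated and 7.46 in control HepG2, and at 10.4 in treated and 10.9 in control PLC/PRF/5. Its partner effector BAX, which is outside the 10, was the more abundant of the pair in every library, at 28.3 and 35.6 FPKM in treated and control HepG2 and 24.1 and 18.7 in treated and control PLC/PRF/5.

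The BH3-only genes were lower than the main survival genes, and BAD, PMAIP1 and BIK were higher in PLC/PRF/5. BCL2L11 (ENSG00000153094, chromosome 2, 111119378 to 111168447, plus strand), which encodes BIM, was at 3.99 FPKM in treated and 4.49 in control HepG2, and at 2.26 in treated and 2.04 in control PLC/PRF/5. BID (ENSG00000015475, chromosome 22, 17734138 to 17774770, minus strand), which links death receptors to mitochondria after cleavage by caspase-8, was at 3.87 and 4.61 FPKM in treated and control HepG2 and at 3.09 and 3.11 in treated and control PLC/PRF/5. In HepG2 these genes were next to each other in the order of levels and their interval included 1 in both libraries. BAD (ENSG00000002330, chromosome 11, 64269830 to 64284704, minus strand), whose product is held inactive by growth factor signalling, was at 1.64 and 1.61 FPKM in treated and control HepG2 and at 5.72 and 7.12 in treated and control PLC/PRF/5.

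PMAIP1 (ENSG00000141682, chromosome 18, 59899948 to 59904306, plus strand) encodes NOXA, which neutralises MCL1. It was at 0.330 and 0.134 FPKM in treated and control HepG2, from 15 and 5 fragments, and at 8.14 and 6.90 FPKM in treated and control PLC/PRF/5, from 309 and 330 fragments. The HepG2 and PLC/PRF/5 libraries did not come near each other for this gene. BIK (ENSG00000100290, chromosome 22, 43110748 to 43129712, plus strand), a BH3-only protein of the endoplasmic reticulum, was at 0.155 and 0.126 FPKM in treated and control HepG2 from 3 and 2 fragments. In PLC/PRF/5 it was at 1.11 FPKM with PF-429242 and 0.639 in the control, from 18 and 13 fragments.

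**Figure D1:**
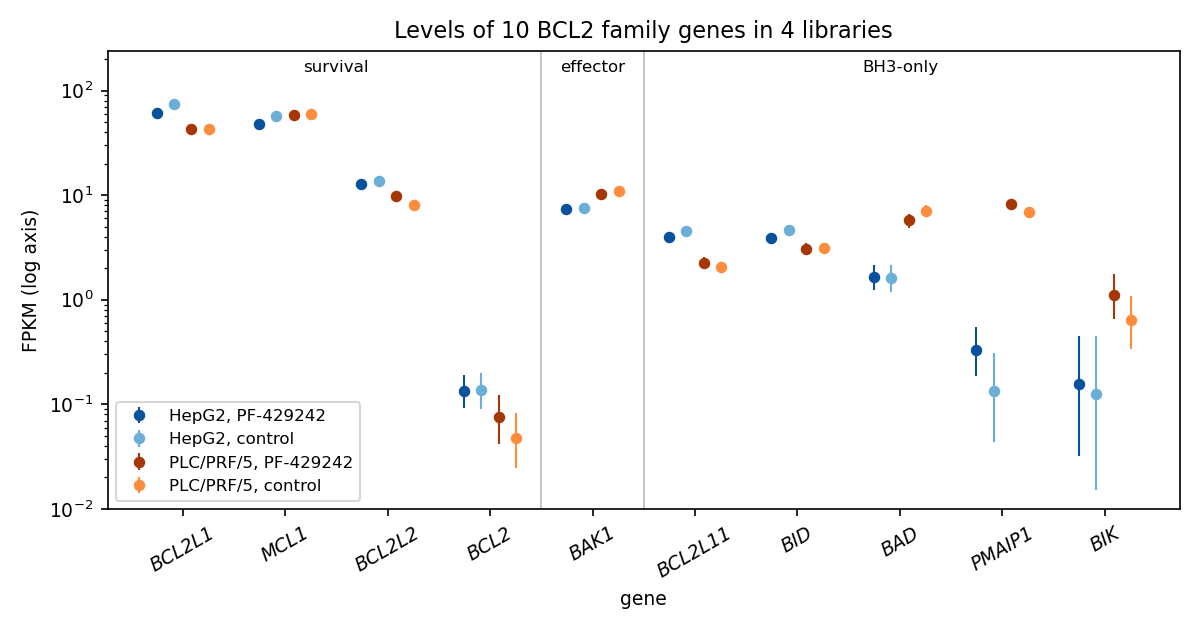
FPKM (log axis) of the 10 genes in each of the 4 libraries, with bars for 95% counting intervals. BCL2L1 and MCL1 stand at or above 42.7 FPKM in every library, BCL2 at or below 0.137, and PMAIP1 separates the lines, at 0.330 and 0.134 FPKM in HepG2 and 8.14 and 6.90 in PLC/PRF/5.

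Read in order of level, the neighbours in each library mostly differed beyond counting error. Orders and sums across genes also depend on the exon lengths used, whose error the intervals do not cover. In treated HepG2 the order was BCL2L1, MCL1, BCL2L2, BAK1, BCL2L11, BID, BAD, PMAIP1, BIK and BCL2, and the neighbours from BCL2L11 to BID and from PMAIP1 to BCL2 did not separate. In control HepG2 BID stood just above BCL2L11, and BCL2, PMAIP1 and BIK closed the order without separating. In treated PLC/PRF/5 the order was MCL1, BCL2L1, BAK1, BCL2L2, PMAIP1, BAD, BID, BCL2L11, BIK and BCL2, with BAK1 and BCL2L2 alone not separating. In control PLC/PRF/5 BAD stood just above PMAIP1, and neither BCL2L2 and BAD nor BAD and PMAIP1 separated.

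The first question was which of these genes differed after site-1 protease inhibition in HepG2. None of the 7 members with at least 1 FPKM in either HepG2 library was past 2-fold, beside 3.14% of all genes (1.00% higher and 2.14% lower). BCL2L1, MCL1 and BID had intervals below 1. The FPKM ratio of BCL2L1 was 0.812 (interval 0.778 to 0.848, 4100 fragments in the treated and 4148 in the control library). That of MCL1 was 0.831 (0.796 to 0.867) and that of BID 0.838 (0.720 to 0.976). These ratios lie close to the median FPKM ratio of all genes, 0.861.

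Relative to the median of all genes, the log2 ratios in HepG2 were -0.12 for BCL2L1, -0.09 for MCL1 and -0.03 for BID. They were 0.04 for BCL2L11, 0.09 for BCL2L2, 0.14 for BAK1 and 0.19 for BAD. The first 3 stayed below 0 under every scaling tried. BCL2L2, BCL2L11 and BAK1 were below 0 on the deposited scale in HepG2, at -0.08, -0.14 and -0.03, and above 0 under median-of-ratios scaling, at 0.12, 0.04 and 0.16. BAD was at 0.02 on the deposited scale and at -0.20 on the TPM scale, where the median of all genes was -0.45.

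The remaining members were below 1 FPKM in HepG2. PMAIP1 had the largest FPKM ratio there, 2.47, but with 15 and 5 fragments its interval ran from 0.852 to 8.67. BIK had a ratio of 1.23 (0.141 to 14.8) and BCL2 one of 0.974 (0.565 to 1.69). The intervals of PMAIP1 and BIK include both 1 and 2, so a 2-fold difference was not detectable at this depth.

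In PLC/PRF/5 the same question gave a similarly small range. None of the 9 members with at least 1 FPKM in either library was past 2-fold, beside 3.29% of all genes (1.48% higher and 1.82% lower). BCL2 was below 1 FPKM, and BIK reached it through the treated library alone. BCL2L1, at a ratio of 0.998 (0.946 to 1.05), MCL1, at 0.967 (0.929 to 1.01), BID, at 0.991 (0.831 to 1.18), and BAK1, at 0.948 (0.829 to 1.08), had intervals that included 1. These 4 were at or below 0 on the deposited log2 scale, at -0.00, -0.05, -0.01 and -0.07, and above 0 under median-of-ratios scaling, at 0.12, 0.07, 0.08 and 0.04. BCL2L2 had a ratio of 1.21 (1.09 to 1.34), BCL2L11 one of 1.11 (0.932 to 1.31) and PMAIP1 one of 1.18 (1.006 to 1.38). BAD was the lowest, at 0.804 (0.658 to 0.981).

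The log2 ratios relative to all genes in PLC/PRF/5 were 0.37 for BCL2L2, 0.34 for PMAIP1, 0.23 for BCL2L11, 0.13 for BCL2L1, 0.12 for BID, 0.08 for MCL1, 0.06 for BAK1 and -0.14 for BAD. The signs of BCL2L2, PMAIP1 and BCL2L11 were positive on the deposited scale and under median-of-ratios scaling and negative on the TPM scale, at -0.06, -0.09 and -0.13, where the median of all genes was -0.40. BAD was negative under every scaling tried. BIK, from 18 and 13 fragments, had a ratio of 1.74 (0.808 to 3.87), and BCL2, from 15 and 12, a ratio of 1.57 (0.688 to 3.68). The intervals of BIK and BCL2 include both 1 and 2, so a 2-fold difference was not detectable at this depth.

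**Figure D2:**
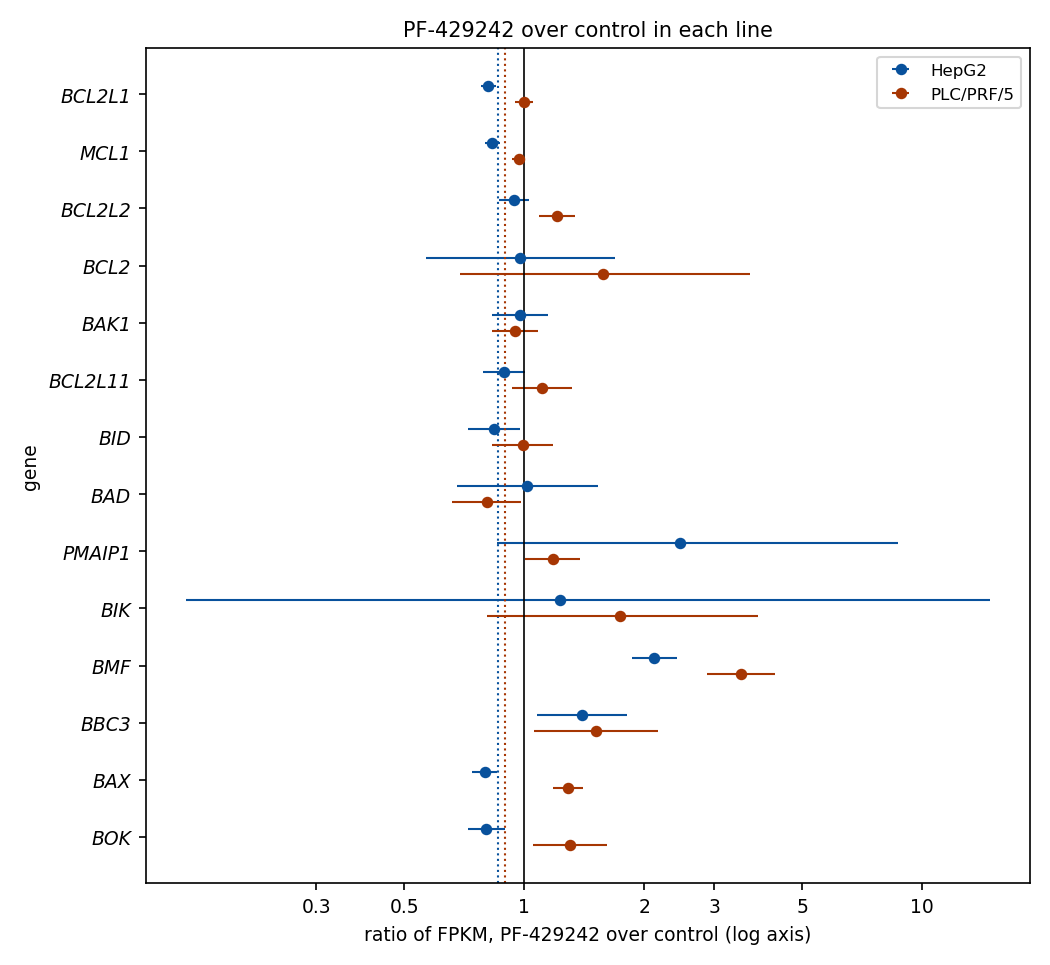
Ratio of FPKM, PF-429242 over control (log axis), for the 10 genes and 4 relatives in HepG2 (blue) and PLC/PRF/5 (brown), with 95% counting intervals. The dotted lines mark the median ratio of all genes, 0.861 in HepG2 and 0.895 in PLC/PRF/5, and the BMF ratios, 2.12 and 3.496, have intervals wholly to the right of 1.

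Summed by role, the 4 survival genes stood at 121.6 FPKM in treated and 146 in control HepG2, a ratio of 0.832, and at 110.8 and 111.1 FPKM in treated and control PLC/PRF/5, a ratio of 0.997. The 5 BH3-only members summed to 9.99 and 10.98 FPKM in treated and control HepG2 and to 20.3 and 19.8 in treated and control PLC/PRF/5. Those BH3-only sums were 8.21% and 7.51% of the survival sum in treated and control HepG2, and 18.3% and 17.8% in treated and control PLC/PRF/5. The BH3-only share of the survival sum thus differed more between the lines than between treated and control cells. The BH3-only members did not move together, since PMAIP1, BAD and BIK were higher in PLC/PRF/5 and BCL2L11 and BID in HepG2. All genes also differed more between lines. Between the untreated lines 23.1% were past 2-fold, against 3.14% with treatment in HepG2 and 3.29% in PLC/PRF/5.

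An effect of PF-429242 shared by the lines was tested with limma over the 12838 genes that reached 1 FPKM in 2 or more libraries, with log2(FPKM + 1) as the response and the line as a block. This fit has 1 residual degree of freedom, which is the difference in response between the lines. To it limma adds 3.04 prior degrees of freedom drawn from all genes. Whether the libraries came from separate cultures is not stated, so the p-values do not measure the spread between repeat cultures. None of the 8 members tested had an adjusted p under 0.05, and neither did any other gene (0% of all genes). At an unadjusted p under 0.05 the fit held 0 of the 8 members, and 19.4% of all genes. The estimate was 0.22 for PMAIP1 (SE 0.11, limma adjusted p = 0.351), which passed the filter through its PLC/PRF/5 libraries alone. It was -0.15 for MCL1 (SE 0.09, limma adjusted p = 0.379) and -0.15 for BCL2L1 (SE 0.10, limma adjusted p = 0.438). Estimates for the other 5 lay between -0.13 for BAD and 0.08 for BCL2L2. On the TPM scale the same fit called MCL1, BCL2L1 and BAK1 lower, among 5980 genes lower and 46 higher.

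The next question was whether the lines differed in their response. The comparison could not be tested, since each group has 1 library. Of the 7 members with at least 1 FPKM in both lines, none had log2 ratios 1 or more apart, beside 2.95% of all genes. BCL2L2, BCL2L11 and BAD had ratios on opposite sides of 0 in the lines, 3 of 7, and 29.1% of all genes did. The HepG2 response divided by the PLC/PRF/5 response was 0.779 for BCL2L2 (counting interval 0.679 to 0.894), 0.814 for BCL2L1 (0.759 to 0.872) and 0.859 for MCL1 (0.810 to 0.911). For BAD it was 1.26 (0.801 to 2.005), and for BAK1 the interval ran from 0.833 to 1.27, both including 1. For BCL2L11 it was 0.803 (0.649 to 0.994) and for BID 0.846 (0.670 to 1.07).

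Untreated HepG2 and untreated PLC/PRF/5 were then compared to see how far the lines differ in this family at baseline. Of the 8 members with at least 1 FPKM in either library, PMAIP1 and BAD were lower in HepG2 by 2-fold or more and none was higher by that much. Among all genes 23.1% were past 2-fold, 13.1% lower and 10.0% higher. BCL2 and BIK were below 1 FPKM in both libraries, and PMAIP1 reached it through PLC/PRF/5 alone. PMAIP1 had an FPKM ratio of 0.0194 in HepG2 over PLC/PRF/5 (interval 0.00625 to 0.0458), from 5 and 330 fragments, and 1.41% of all genes had a lower log2 ratio. BAD had a ratio of 0.226 (0.162 to 0.311), from 46 and 260 fragments.

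Other members differed by less. BCL2L1 had a ratio of 1.75 in untreated HepG2 over untreated PLC/PRF/5 (1.67 to 1.84), BCL2L2 1.69 (1.53 to 1.86), BCL2L11 2.205 (1.90 to 2.56) and BID 1.48 (1.26 to 1.74). BCL2L11 passed 2-fold on FPKM but not on log2(FPKM + 1), where it was at 0.85. MCL1 was nearly equal, at 0.955 (0.917 to 0.994), and BAK1 was lower in HepG2, at 0.683 (0.588 to 0.792). BCL2, at 2.88 (1.41 to 6.24), and BIK, at 0.197 (0.0216 to 0.869), rest on 27 and 12 and on 2 and 13 fragments in HepG2 and PLC/PRF/5. MCL1 was above 0 on the TPM scale, at 0.15 on the log2 scale, while the signs of the other 9 genes were the same under every scaling tried.

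The same comparison was made between the lines with PF-429242 in both. PMAIP1 had a ratio of 0.0405 in treated HepG2 over treated PLC/PRF/5 (0.0224 to 0.0679) and BAD one of 0.287 (0.208 to 0.389). These were again the members past 2-fold, 2 of 9, beside 17.8% of all genes (12.0% lower and 5.87% higher). The ratio of BCL2L1 was 1.43 (1.36 to 1.50), that of BCL2L2 1.32 (1.196 to 1.45), and that of BCL2L11 1.77 (1.52 to 2.06), each nearer 1 than in the untreated pair. That of MCL1 was 0.820 (0.786 to 0.856).

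**Figure D3:**
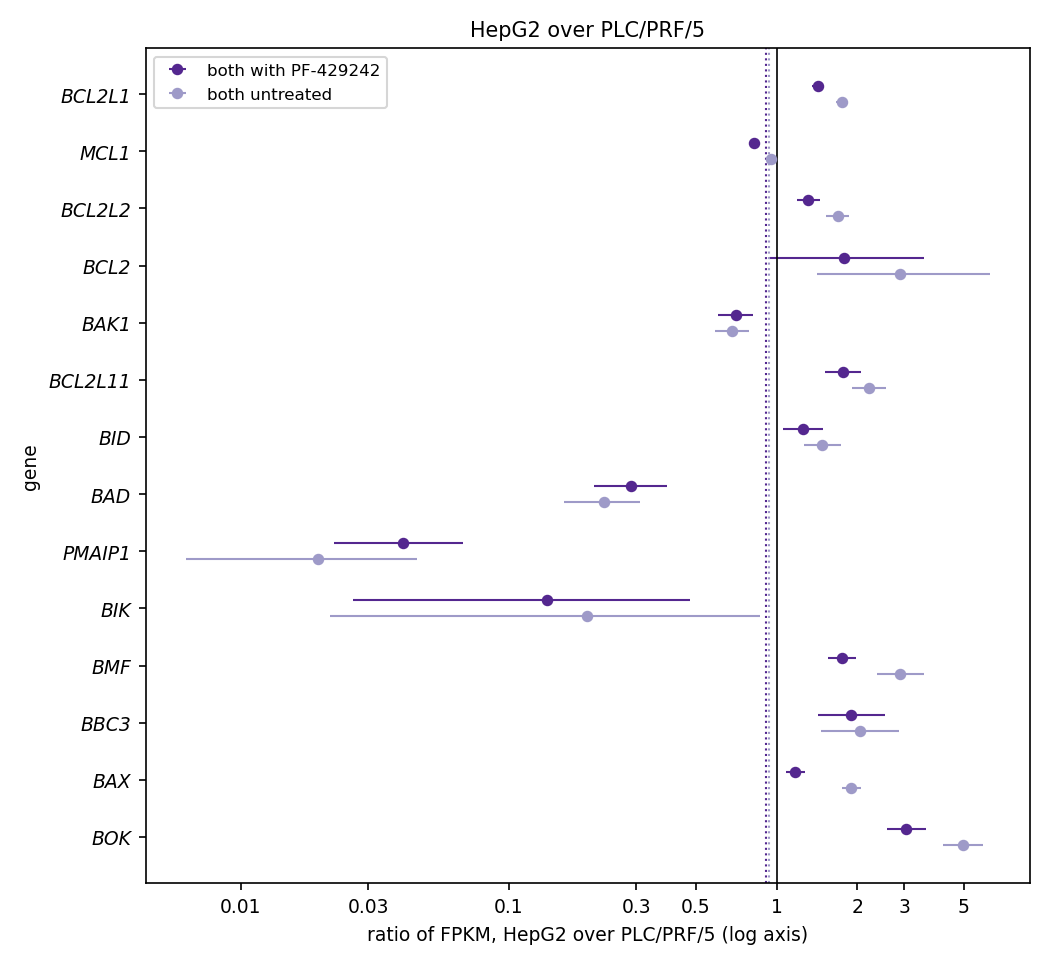
Ratio of FPKM, HepG2 over PLC/PRF/5 (log axis), with both lines treated (dark) and both untreated (light), and 95% counting intervals; dotted lines mark the medians of all genes, 0.911 and 0.939. PMAIP1 lies furthest to the left, at 0.0405 and 0.0194, BIK at 0.139 and 0.197 has wide intervals, BAD lies at 0.287 and 0.226, and the survival genes lie at or right of 0.820.

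Because PMAIP1 separated the lines most, its upstream sequence is shown, from RefSeq on GRCh38.p14, chr18:59899746-59899947, plus strand, 202 bases ending just before the first base of the GENCODE 29 gene. The capitals mark the half-site of the cyclic AMP response element, TGACGT, which reads ACGTCA on this strand; ATF4 and related factors are known to bind such elements.
PMAIP1 upstream: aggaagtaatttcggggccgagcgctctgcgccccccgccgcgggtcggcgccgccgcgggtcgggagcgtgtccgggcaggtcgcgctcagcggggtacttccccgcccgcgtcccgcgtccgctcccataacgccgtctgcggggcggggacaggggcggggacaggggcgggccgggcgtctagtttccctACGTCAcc
Promoter windows from 250 bases before to 50 after the start were available for 7 of the 10 genes, and not for BCL2L2, MCL1 and BIK. A gene can have more than 1 window, and the shares below are of windows. Searched on both strands, the half-site was found in those of PMAIP1 and BAD and in 7.98% of 35116 promoters. The full element TGACGTCA, which contains the half-site, was in none of the 7 members searched and in 1.85% of promoters. The sterol regulatory element TCACNCCAC was in none of the 7 and in 1.13%, and the FOXO site GTAAACA in BCL2L11 and in 3.42%. The amino acid response element TTGCATCA was in none of the 7 and in 0.866%. A match is a description of these letters and no evidence of binding.

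Of the 14 other family genes, 9 reached 1 FPKM in HepG2 and none was past 2-fold on log2(FPKM + 1), beside 3.14% of all genes. In PLC/PRF/5 8 reached it and BMF alone was past 2-fold, beside 3.29% of all genes. BMF, a BH3-only gene, was at 7.54 FPKM in treated and 3.56 in control HepG2, a ratio of 2.12 (1.86 to 2.42). On log2(FPKM + 1) that is 0.91, short of 2-fold. In PLC/PRF/5 BMF was at 4.29 FPKM with PF-429242 and 1.23 in the control, a ratio of 3.496 (2.88 to 4.26). It was higher with treatment in both lines under every scaling tried. In the limma fit its estimate was 1.08 (SE 0.13, unadjusted p = 0.00111, adjusted p = 0.193), so it missed the threshold over all genes. BBC3, which encodes PUMA, was at 2.52 and 1.81 FPKM in treated and control HepG2 and at 1.33 and 0.882 in treated and control PLC/PRF/5, with ratios of 1.395 (1.08 to 1.81) and 1.51 (1.06 to 2.17) in HepG2 and PLC/PRF/5.

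The effector relatives took opposite sides in the lines. BAX had a ratio of 0.796 in HepG2 (0.740 to 0.855) and 1.29 in PLC/PRF/5 (1.18 to 1.41). BOK, a further BAX-like gene, was at 12.1 and 15.0 FPKM in treated and control HepG2, a ratio of 0.803 (0.720 to 0.896), and at 3.95 and 3.04 in treated and control PLC/PRF/5, a ratio of 1.30 (1.05 to 1.61). These opposite signs held under every scaling tried. Adding BMF, BBC3 and HRK to the 5 BH3-only members gave sums of 20.0 and 16.3 FPKM in treated and control HepG2 and of 26.6 and 22.4 in treated and control PLC/PRF/5. Those sums have ratios of 1.23 and 1.18 in HepG2 and PLC/PRF/5, against 0.910 and 1.026 for the 5 members alone. On the deposited scale the 9 other family genes at 1 FPKM or more in HepG2 had a median log2 ratio of -0.01, and the 8 in PLC/PRF/5 one of 0.21; under median-of-ratios scaling these were 0.19 and 0.30.

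Genes acting downstream of the family lay mostly at or below the median of all genes. Of the apoptosome and caspase list, all 10 measured genes were below 0 in HepG2 and 9 of 10 in PLC/PRF/5, with medians of -0.31 and -0.35. Of all genes, 17.6% were above 0 in HepG2 and 29.1% in PLC/PRF/5, so most genes lay below 0 on this scale. Under median-of-ratios scaling 7 of 10 were below 0 in each line, with medians of -0.11 and -0.25. CASP9, the initiator caspase of the mitochondrial pathway, was at 1.14 and 1.68 FPKM in treated and control HepG2 and at 3.32 and 4.93 in treated and control PLC/PRF/5. APAF1, the scaffold on which CASP9 is activated, was at 2.42 and 3.55 in treated and control HepG2 and at 3.52 and 4.73 in treated and control PLC/PRF/5. CASP2 had log2 ratios of -0.43 in HepG2 and -0.35 in PLC/PRF/5. These 3 were below 0 in both lines under every scaling tried. On the deposited scale limma called 0 of the 10 genes, with 6 at an unadjusted p under 0.05, all lower. Of all genes, 19.4% had such a limma p on that scale, and 10.5% under median-of-ratios scaling. The list counts were not taken under the latter scaling.

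The inhibitors of apoptosis, which block caspases or their activation, had medians of -0.22 in HepG2 and -0.16 in PLC/PRF/5, with all 5 measured genes below 0 in both, on the scale where 17.6% and 29.1% of all genes were above 0. BIRC5, encoding survivin and tied to mitosis, was at 26.2 and 38.4 FPKM in treated and control HepG2 and at 24.6 and 30.2 in treated and control PLC/PRF/5. BIRC3 was the gene of this list with the widest gap between lines, at 0.582 and 1.098 FPKM in treated and control HepG2 and 20.98 and 27.95 in treated and control PLC/PRF/5. BIRC6 had log2 ratios of -0.21 and -0.14 in HepG2 and PLC/PRF/5, and of -0.02 and 0.02 under quantile normalization. Under median-of-ratios scaling 4 of the 5 were below 0 in each line, with medians of -0.02 and -0.05. The limma fit on the deposited scale called 0 of the 5. At an unadjusted limma p under 0.05 there were 2, both lower, beside 19.4% of all genes.

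The death receptor list, the outer membrane partners and the genes of MCL1 and BH3 protein turnover were near the median of all genes. Their median log2 ratios were -0.14, -0.21 and -0.22 in HepG2 and -0.20, -0.22 and -0.18 in PLC/PRF/5, with no gene past 2-fold in either line. Under median-of-ratios scaling these medians were 0.03, -0.01 and -0.02 in HepG2 and -0.09, -0.10 and -0.06 in PLC/PRF/5. In the death receptor list the adaptor gene TRADD was at -0.17 and -0.32 in HepG2 and PLC/PRF/5. In the same order the kinase gene RIPK1 was at -0.26 and -0.21, and the caspase-8 inhibitor gene CFLAR at -0.18 and -0.18. On the deposited scale 2 of the 11 measured genes of that list were above 0 in HepG2 and 2 of 10 in PLC/PRF/5. The receptor gene TNFRSF10B was on opposite sides of 0, at -0.25 in HepG2 and 0.30 in PLC/PRF/5. Among the outer membrane partners the channel genes VDAC3 and VDAC1 were at -0.44 and -0.19 in HepG2 and at -0.22 and -0.21 in PLC/PRF/5, and the fusion gene MFN2 at -0.25 in both. In the turnover list YWHAZ, a 14-3-3 gene whose family sequesters BAD, was at -0.37 and -0.45 in HepG2 and PLC/PRF/5, DYNLL1, the dynein light chain, at -0.38 and -0.26, and BTRC, a ubiquitin ligase adaptor, at -0.17 and -0.33. In HepG2 VDAC1 and BTRC were above 0 under median-of-ratios scaling, at 0.02 and 0.01. The limma fit on the deposited scale called none of the 11, 8 and 10 genes tested in these lists. At an unadjusted limma p under 0.05 there were 1, 3 and 4, all lower, beside 19.4% of all genes. Most genes lay below 0 on that scale in each line.

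Of the transcription factors known to act on members, DDIT3 was the furthest from 0. DDIT3, which encodes CHOP and is known to act on BH3-only genes under endoplasmic reticulum stress, was at 7.11 and 4.94 FPKM in treated and control HepG2 and at 21.8 and 11.8 in treated and control PLC/PRF/5. Its limma estimate was 0.64 (SE 0.12, adjusted p = 0.193), and it was above 0 in both lines under every scaling tried. ATF4 was at 144 and 118 FPKM in treated and control HepG2 and at 138 and 120.3 in treated and control PLC/PRF/5, and MYC had log2 ratios of 0.14 and 0.39 in HepG2 and PLC/PRF/5. On the TPM scale ATF4 was below 0 in both lines, at -0.05 and -0.13, and MYC was below 0 in HepG2, at -0.18. The whole list of 11 measured genes had medians of -0.01 in HepG2 and 0.02 in PLC/PRF/5, or 0.18 and 0.13 under median-of-ratios scaling. On the deposited scale limma called none of them. At an unadjusted limma p under 0.05 there were 4, 3 higher and 1 lower, beside 19.4% of all genes.

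**Figure D4:**
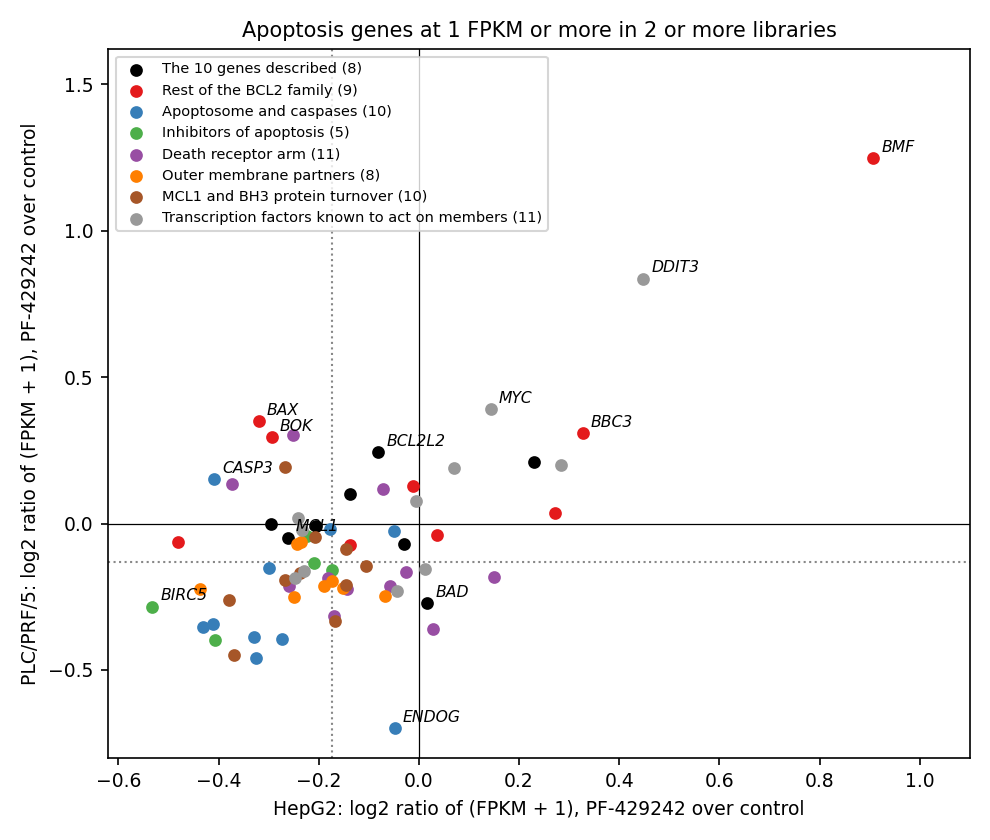
Log2 ratio of (FPKM + 1), PF-429242 over control, in HepG2 (x) and PLC/PRF/5 (y) for genes of the 8 lists at 1 FPKM or more in at least 2 libraries, with the number of genes per list in the legend. Dotted lines mark the medians of all genes, -0.17 and -0.13; the 8 members shown (black) lie between -0.30 and 0.23 in HepG2 and between -0.27 and 0.24 in PLC/PRF/5, while BMF and DDIT3 lie to the upper right, and BAX and BOK to the upper left.

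Some member values share annotated exon bases with other genes, and the labels do not say whether counting used strand. The antisense gene ABALON overlaps 43.0% of the exon bases of BCL2L1 and was at 3.74 and 4.05 FPKM in treated and control HepG2 and 2.17 and 2.87 in treated and control PLC/PRF/5, far below BCL2L1. GPR137, on the opposite strand, overlaps 23.7% of those of BAD and was at 2.54 and 2.79 FPKM in treated and control HepG2 and 5.76 and 8.32 in treated and control PLC/PRF/5. These GPR137 levels are above those of BAD and are higher in PLC/PRF/5 as BAD is. With PF-429242 GPR137 was also lower in PLC/PRF/5, as BAD was, and lower in HepG2, where BAD was not. Reads of the pair cannot be told apart in the overlap, and the part of GPR137 in the BAD values was not tested. The readthrough gene BCL2L2-PABPN1 shares 19.4% of the BCL2L2 exon bases on the same strand, at 1.84 and 1.35 FPKM in treated and control HepG2 and 0.647 and 0.604 in treated and control PLC/PRF/5, so the BCL2L2 values are uncertain to that extent. MIR4435-2HG overlaps 10.9% of the exon bases of BCL2L11 on the opposite strand, PPP1R3E 4.92% of those of BCL2L2 and GGNBP1 4.11% of those of BAK1.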

How the data were processed

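RNA was sequenced in 4 libraries, 1 per group. Reads were aligned with TopHat2 to GRCh38, per the submitters' processing notes. The tool version, counting program and annotation release were not given in the sources used here. FPKM is a value per gene, scaled to length and depth. The authors deposited FPKM values, with 1 column per library, and no column was left out. Symbols, positions and exon lengths came from GENCODE 29, which held 32354 of the 32479 identifiers.

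Fragments were recovered from the FPKM values as whole multiples of 1 fragment (tolerance 0.001): 24452 genes with GENCODE 29 exon lengths, 7619 by ratios between libraries, and 408 unsolved. Of the members, BCL2L11 and BIK were solved by ratios. The recovery and the limma fit were tested on simulated data. For recovery by ratios the required accuracy was set only for genes with more fragments than BIK had. The simulated responses differed between the lines by random noise alone. These tests therefore do not cover the BIK counts, or genes whose response differs between the lines. For a gene of 1 kb, 3 fragments are between 0.140 and 0.179 FPKM. Ratios of FPKM carry exact (Clopper-Pearson) 95% counting intervals, and ratios of ratios exact conditional intervals. Libraries carried no stated molecular identifiers, so fragments may repeat 1 molecule, and intervals cover counting error only. Log2 ratios are of (FPKM + 1), which understates low genes. Past 2-fold means on that scale, with at least 1 FPKM in either library. For the shared effect, limma 3.58.1 (R 4.3.3) was run with lmFit and eBayes with trend, and with Benjamini-Hochberg adjustment over all genes tested and a threshold of 0.05. The other steps used Python 3.11.15 with scipy 1.17.1.

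The members and lists were chosen with earlier results of these data known. The genes named were all 10 members, BMF, BAX, BBC3 and BOK, and in every other list the 3 with the largest mean change. Genes overlapping a member, HRK in a sum, PECAM1 and TNFRSF10B were named outside that rule. Alternatives were the pseudocount, the filter, the fold, 4 other scalings and limma settings. Totals over nuclear genes and limma-voom on recovered fragments were chosen after seeing the data.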

Additional observations from a re-analysis of the deposited data

Results flagged for a closer look

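Of the 10 members and BMF, BAX, BBC3 and BOK, 6 had log2 ratios of (FPKM + 1), PF-429242 over control, on opposite sides of 0 in the lines. With 1 library per group this difference was not tested. The HepG2 minus PLC/PRF/5 difference was -0.67 for BAX, at -0.32 in HepG2 and 0.35 in PLC/PRF/5, and -0.59 for BOK, at -0.29 and 0.30. It was -0.33 for BCL2L2 (-0.08 in HepG2 and 0.24 in PLC/PRF/5), -0.24 for BCL2L11 (-0.14 and 0.10) and 0.29 for BAD (0.02 and -0.27). For BCL2, at or below 0.137 FPKM in every library, it was -0.04. Of all genes with at least 1 FPKM in a library of each line, 29.1% had opposite signs. BCL2, PMAIP1 and BIK did not pass that filter, so the count of 6 is not on the same footing. Under median-of-ratios scaling BCL2L2 and BCL2L11 were above 0 in both lines, while BAX, BOK and BAD had opposite signs; on the TPM scale BCL2L2, BCL2L11 and BAD were below 0 in both, as was the median of all genes, at -0.45 in HepG2 and -0.40 in PLC/PRF/5.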

How the results depend on the processing

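The count of members past 2-fold was 0 for HepG2 and 0 for PLC/PRF/5 under each alternative run. For untreated HepG2 over untreated PLC/PRF/5 the count was 2, against 1 with a pseudocount of 5 (PMAIP1), 4 on the TPM scale (BCL2L1 and BCL2L11 too, both higher) and 5 at 1.5-fold (BCL2L1, BCL2L11 and BCL2L2 too, all higher); the other settings gave 2, except 3 with a pseudocount of 0.1. In the shared limma fit 0 members were called, except 3 on the TPM scale, where 6026 genes in all were called against 0 on the deposited scale; the cause was not tested. The lowest limma adjusted p of a member was 0.351 and lay between 0.0232 and 1.00 over the alternatives. Limma-voom on the recovered fragments called 0 genes (3102 at an unadjusted p under 0.05). The shared fit pairs treated with control within each line; dropping that pairing (no replicate block) also gave 0 genes, with 112 at an unadjusted p under 0.05 against 2488 with it. Leaving out a library was not run, since each group has 1. Genes past 2-fold in HepG2 numbered 388, against 769 with a pseudocount of 0.1, 44 with 5, 101 at a minimum of 5 FPKM and 972 at 1.5-fold. In PLC/PRF/5 they numbered 433, against 931, 54, 99 and 1225 under the same settings. Between untreated lines they numbered 3203, against 939 with a pseudocount of 5, 1650 at a minimum of 5 FPKM and 6029 at 1.5-fold. The higher share of these calls was 32.0% in HepG2, 46.2% under median-of-ratios scaling and 17.8% on the TPM scale; in PLC/PRF/5 it was 44.8%, 54.3% and 19.2%, and 55.0% with nuclear totals; between untreated lines 43.4%, and 54.4% on the TPM scale. Depth limits PMAIP1 in HepG2, and BIK and BCL2 in all 4 libraries.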
